A study of Mus musculus with 10 samples.

Results

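The genes described here are 34 imprinted mouse genes, taken from a list of symbols and found by Ensembl ID among the 47069 gene IDs counted in each of 10 prostate orthograft tumours. All 34 were present in the files. Of these, 28 passed the filter on low counts and were tested, and 6 (Rtl1, Zim1, Usp29, Magel2, Nap1l5 and Zdbf2) did not. They were grouped by imprinted locus, which gave 17 loci.

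The tumours grew in male CD-1 Nude mice, an athymic strain, after mouse prostate cancer cells had been placed in one anterior lobe of the prostate. P1 cells derive from the prostate tumour of a donor aged 14 months, and 3 P1 tumours were sequenced. CP1 and CP2 cells derive from the prostate tumours of donors aged 6 and 8 months that carried the heterozygous allele Ctnnb1pc(ex3)Δ/+, a deletion of exon 3 that stabilises beta-catenin, and 3 CP1 and 4 CP2 tumours were sequenced. All lines were grown in Matrigel and then in flat culture before grafting. Each group is thus a single line from a single donor genotype, and line, genotype and donor age cannot be told apart. Host cells are also mouse cells, and their reads are counted with those of the graft. In bulk tumours, fewer cells of a type and less RNA per cell cannot be told apart. Which animal each library came from is not labelled, so p-values reflect only the spread among these libraries, which may in part be technical.

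Imprinted genes are expressed mainly from the allele of one parent, because a control region in each locus is methylated in only one of the parental germ lines. Many loci pair growth-regulating protein-coding genes with a long noncoding RNA, such as Kcnq1ot1 or Airn, that is transcribed from the paternal allele and keeps its neighbours silent on that allele. Paternally expressed members such as Igf2 and Peg3 and maternally expressed members such as H19, Phlda2 and Cdkn1c are known for opposite effects on fetal growth. Gene counts do not separate the parental alleles, so levels below are sums over both.

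Kcnq1, Slc22a18 and Phlda2, maternally expressed genes of the Kcnq1 locus, were far lower in both CP lines than in P1, while Kcnq1ot1, the noncoding RNA of the same locus, stood between 6.28 and 8.34 CPM in all 10 tumours. The Kcnq1ot1 count may include reads from Kcnq1 introns, since the use of strand is unknown. Igf2r and its antisense RNA Airn were both higher in CP1, and less so in CP2. H19 was higher in both CP lines with no called change of Igf2. All 4 tested genes of the Snrpn-Ndn locus were lower in both CP lines, though Ndn in CP1 only just passed the threshold for a call. Peg10 was higher than P1 in CP1 and lower in CP2, and Plagl1, Sgce and Grb10 were lower in CP2 than in either other line.

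Transcript levels are given as CPM, counts per 1000000 counts of the library after TMM scaling, and differences as log2 fold changes with their SE. Calls below are those with an adjusted p under 0.05 in edgeR's quasi-likelihood test, with Benjamini-Hochberg adjustment over 17644 genes. Libraries held 28050484 to 37180721 counts in P1, 25081535 to 30546426 in CP1 and 18800912 to 20638085 in CP2. A total of 3 counts in a library corresponds to 0.0923 to 0.109 CPM in P1, 0.0973 to 0.121 CPM in CP1 and 0.137 to 0.154 CPM in CP2, so levels near 0.1 CPM rest on a few reads. CP2 replicate 1 is titled as CP1 but labelled CP2 in its tissue and source fields, and was treated as CP2. Across genes, its log2 CPM correlated at a mean r of 0.987 with the other CP2 tumours, 0.898 with CP1 tumours and 0.795 with P1 tumours.

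In CP1 versus P1, 8 of the 28 tested imprinted genes were called higher and 7 lower, 15 in all, where 44.8% of all genes tested were called in either direction, 22.4% higher and 22.4% lower. In CP2 versus P1, 8 were called higher and 13 lower, 21 in all, where 56.7% of all genes were called, 28.3% higher and 28.4% lower. In CP2 versus CP1, 4 were called higher and 11 lower, 15 in all, where 43.3% of all genes were called, 21.3% higher and 21.9% lower. The median log2 fold change of the 28 genes was -0.02 in CP1 versus P1, -1.18 in CP2 versus P1 and -0.64 in CP2 versus CP1, beside -0.01, 0.00 and -0.01 over all genes tested. The CP1 and CP2 comparisons with P1 share the 3 P1 tumours. Within them, H19, Igf2r, Airn, Mest, Impact and Gnas (6 genes) were called higher in both, Peg12, Phlda2, Kcnq1, Snrpn, Ndn, Mkrn3 and Slc22a18 (7 genes) lower in both, and Peg10 in opposite directions. Igf2, Dlk1, Meg3, Kcnq1ot1, Nnat and Asb4 (6 genes) were called in none of the 3 comparisons. The shares of all genes called alike in both comparisons with P1, or called in none, were not counted. Whether these joint counts set the listed genes apart from other genes was therefore not tested.

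**Figure D1:**
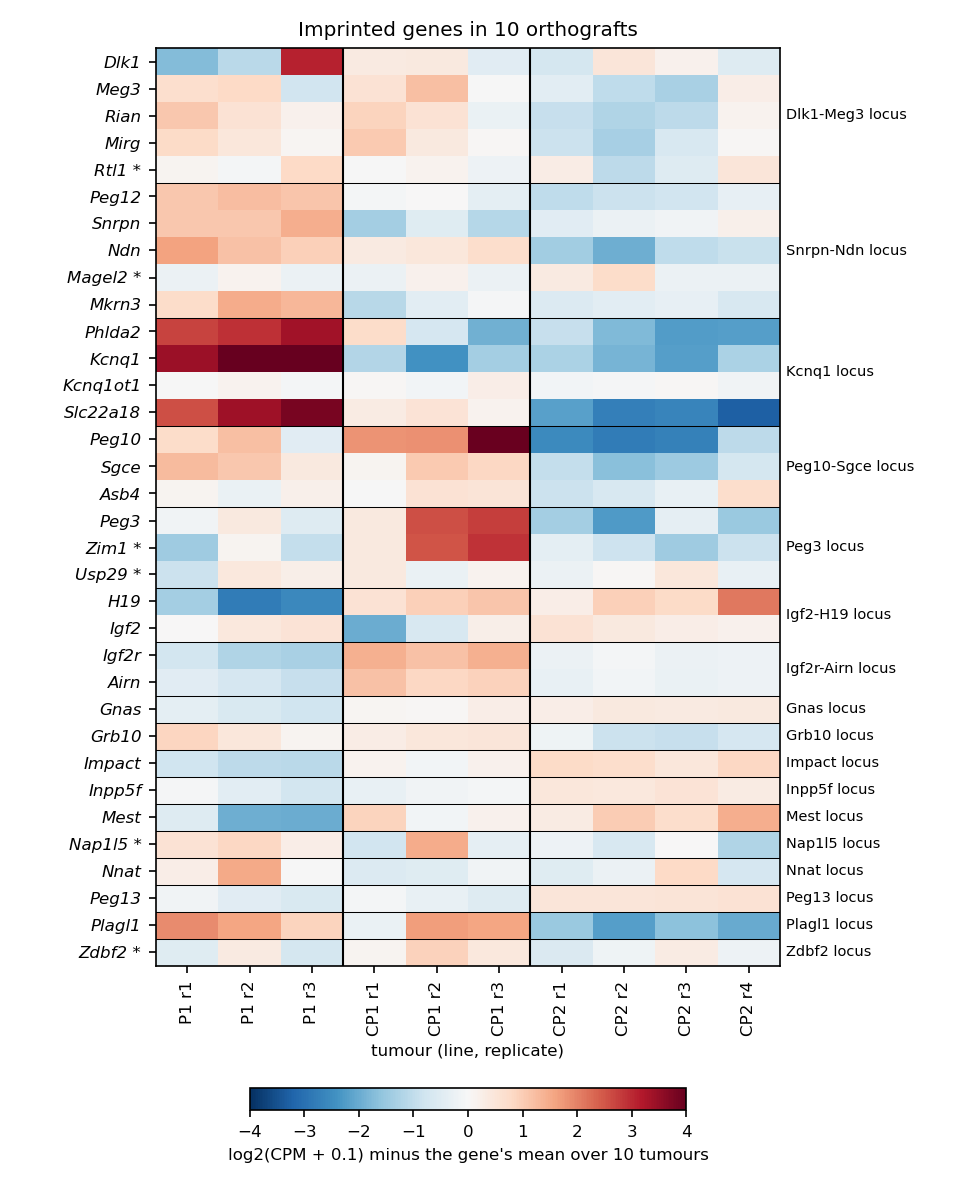
Heat map of the 34 imprinted genes (rows, grouped by locus) in the 10 tumours (columns, r for replicate); the colour is log2(CPM + 0.1) minus the gene's mean over the 10 tumours, and an asterisk marks the 6 genes that were not tested. Kcnq1, Slc22a18 and Phlda2 are darkest red in the 3 P1 tumours, Kcnq1ot1 is near 0 throughout, and Peg3, Zim1 and Peg10 are unequal among the CP1 tumours.

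**Figure D2:**
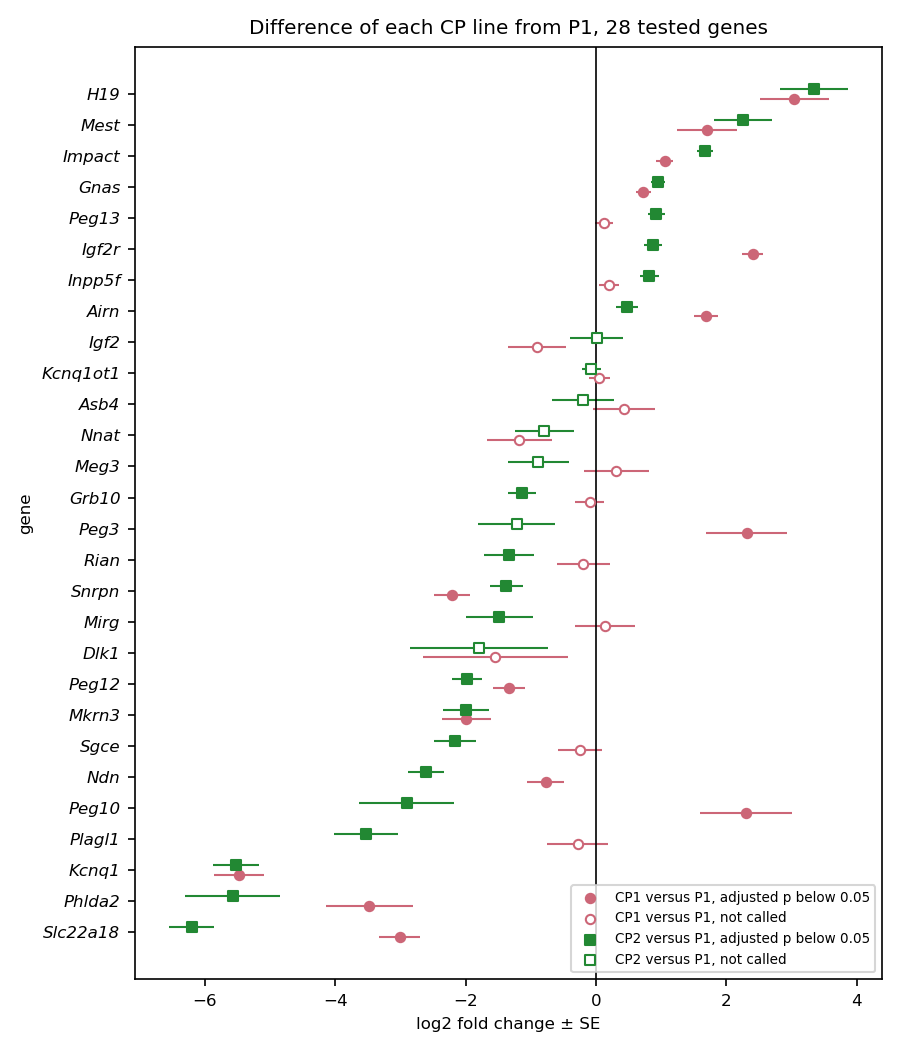
Log2 fold change ± SE against P1 for the 28 tested imprinted genes, in CP1 (circles) and CP2 (squares), sorted by the CP2 value; filled symbols passed an adjusted p of 0.05 and open symbols did not. Slc22a18, Phlda2 and Kcnq1 lie lowest and H19 highest in CP2, and Peg10 and Peg3 lie on opposite sides of 0 in CP1 and CP2.

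The Kcnq1 locus lies on GRCm38 chromosome 7. Its maternally expressed members include Kcnq1 (ENSMUSG00000009545, chromosome 7: 143106362 to 143427042), a potassium channel of epithelia and heart, Slc22a18 (ENSMUSG00000000154, chromosome 7: 143473736 to 143499334), a membrane transporter of the organic cation family, and Phlda2 (ENSMUSG00000010760, chromosome 7: 143501545 to 143503150), a small pleckstrin homology domain protein known for restraining placental growth. Kcnq1ot1 (ENSMUSG00000101609, chromosome 7: 143203458 to 143296549) starts in an intron of Kcnq1 and runs antisense to it. Kcnq1 stood at 114, 185 and 175 CPM in the P1 tumours, 4.66, 1.91 and 4.09 CPM in those of CP1 and 4.37, 2.84, 2.23 and 4.33 CPM in those of CP2. Slc22a18 stood at 27.5, 48.3 and 63.7 CPM in the P1 tumours, 5.72, 6.55 and 4.98 CPM in those of CP1 and 0.925, 0.589, 0.638 and 0.372 CPM in those of CP2. Phlda2 stood at 4.34, 5.08 and 6.82 CPM in the P1 tumours, 1.02, 0.324 and 0.081 CPM in those of CP1 and 0.257, 0.0981, 0.0456 and 0.0465 CPM in those of CP2. For each of the 3 genes every P1 tumour lay above every CP1 and CP2 tumour. For Slc22a18 the CP1 tumours also lay between P1 and CP2 without overlap.

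Kcnq1 was lower by a log2 fold change of -5.48 ± 0.39 (adjusted p = 4.59e-06) in CP1 and -5.52 ± 0.35 (adjusted p = 1.48e-06) in CP2, and the difference of CP2 from CP1 was -0.04 ± 0.34 (adjusted p = 0.931). Slc22a18 differed from P1 by -3.01 ± 0.32 (adjusted p = 4.91e-05) in CP1 and -6.20 ± 0.35 (adjusted p = 8.62e-07) in CP2, and the further step from CP1 to CP2 was -3.19 ± 0.34 (adjusted p = 7.49e-05). Phlda2 differed from P1 by -3.48 ± 0.67 (adjusted p = 0.00191) in CP1 and -5.57 ± 0.73 (adjusted p = 1.27e-04) in CP2. Its CP2 level rests on 1 to 5 counts per tumour, and its difference from CP1, at -2.10 ± 0.80 (adjusted p = 0.0583), was not called. DESeq2 called that last difference, at -2.14 (adjusted p = 0.0263), as did the fits without CP1 replicate 3, without CP2 replicate 1 and without CP1 replicates 2 and 3. The CP1 tumours were unequal for Phlda2, with replicate 1 the highest and replicate 3 the lowest.

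Kcnq1ot1 stood at 6.96, 7.63 and 6.6 CPM in the P1 tumours, 7.17, 6.46 and 8.34 CPM in those of CP1 and 6.52, 6.82, 7.25 and 6.28 CPM in those of CP2. All 3 groups overlapped, and the log2 fold changes were 0.05 ± 0.16 (adjusted p = 0.816) in CP1 versus P1, -0.07 ± 0.15 (adjusted p = 0.691) in CP2 versus P1 and -0.12 ± 0.15 (adjusted p = 0.519) in CP2 versus CP1. As counts, Kcnq1ot1 amounted to 3.78% to 6.09% of Kcnq1 in the P1 tumours, to 154% to 337% in CP1 and to 145% to 324% in CP2. These shares are not corrected for the longer exons of Kcnq1ot1. Per kb of annotated exon, Kcnq1ot1 stayed below Kcnq1, at 0.0786 against 0.868 CPM per kb in CP1 and 0.0721 against 0.841 in CP2. The annotated exons of both genes share 121 bases, and the sources used here do not say if reads were assigned by strand, so a read from such a stretch may have been left out or given to either gene. The annotated exon length of Kcnq1ot1, 93092 bases, covers its whole span and so takes in Kcnq1 introns. With the use of strand unknown, a read from a Kcnq1 intron could also have been counted for Kcnq1ot1. The steady Kcnq1ot1 count may therefore not be the level of the noncoding RNA alone.

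To show the sequence context of 3 of these genes, the stretch from 250 to 61 bases before the RefSeq start is printed 5′ to 3′ on the gene's strand, with each CpG, the dinucleotide that DNA methylation acts on, in capitals. The windows (GRCm38.p6) are chr7:143296608-143296797 on the minus strand for Kcnq1ot1, chr7:143473539-143473728 on the plus strand for Slc22a18 and chr7:143502585-143502774 on the minus strand for Phlda2.
Kcnq1ot1: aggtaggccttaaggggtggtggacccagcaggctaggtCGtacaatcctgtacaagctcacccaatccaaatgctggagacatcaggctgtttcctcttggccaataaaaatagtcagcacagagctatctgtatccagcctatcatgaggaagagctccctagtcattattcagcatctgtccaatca
Slc22a18: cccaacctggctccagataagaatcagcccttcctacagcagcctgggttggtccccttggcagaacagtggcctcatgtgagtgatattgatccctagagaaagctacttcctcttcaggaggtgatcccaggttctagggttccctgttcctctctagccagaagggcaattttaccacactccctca
Phlda2: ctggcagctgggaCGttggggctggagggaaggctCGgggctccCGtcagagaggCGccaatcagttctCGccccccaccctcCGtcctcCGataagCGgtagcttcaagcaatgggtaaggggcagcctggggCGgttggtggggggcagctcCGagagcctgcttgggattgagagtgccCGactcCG
They hold 1 CpG in Kcnq1ot1, 0 in Slc22a18 and 12 in Phlda2. The median over all 32851 RefSeq promoter windows cut to the same 190 bases was 4, and 22.4% of them held at least as many as Phlda2. The whole 300-base windows, which run to 50 bases after the start, hold 9 CpG in Kcnq1ot1, 2 in Slc22a18 and 26 in Phlda2. The median over all such whole windows was 7. Methylation was not measured, and a part of CpG content in the expression differences was not tested.

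Cdkn1c and Ascl2, further maternally expressed genes of the same stretch, from a second list of 48 imprinted genes, were also lower in both CP lines. Cdkn1c, which encodes the cyclin-dependent kinase inhibitor p57, stood at 3.94, 6.51 and 5.07 CPM in the P1 tumours, 1.06, 2.3 and 1.17 CPM in those of CP1 and 1.64, 0.932, 1.32 and 0.419 CPM in those of CP2. Its log2 fold changes against P1 were -1.77 ± 0.46 (adjusted p = 0.0100) in CP1 and -2.26 ± 0.43 (adjusted p = 0.00136) in CP2. Ascl2, a basic helix-loop-helix factor needed for the trophoblast and known as a beta-catenin target in intestinal stem cells, stood at 1.6, 2.65 and 2.55 CPM in the P1 tumours, 0.282, 0.552 and 0.445 CPM in those of CP1 and 0.103, 0.0981, 0.137 and 0.093 CPM in those of CP2. Its differences were -2.39 ± 0.31 (adjusted p = 1.88e-04) and -4.33 ± 0.35 (adjusted p = 6.07e-06), and every P1 tumour lay above every CP tumour for both genes. Other genes of the second list in the stretch moved in either direction. Nap1l4, a nucleosome assembly protein gene, was higher by 0.30 ± 0.08 (adjusted p = 0.0121) in CP1 and not called in CP2 (0.01 ± 0.07 (adjusted p = 0.929)). Tnfrsf22 and Tnfrsf23, decoy receptors of the tumour necrosis factor family, were higher in CP1, by 1.19 ± 0.18 (adjusted p = 4.54e-04) and 0.97 ± 0.25 (adjusted p = 0.00954). In CP2 versus P1, Tnfrsf23 was lower by -1.15 ± 0.23 (adjusted p = 0.00193) and Tnfrsf22 was not called (-0.07 ± 0.17 (adjusted p = 0.733)). Cd81, a tetraspanin, was lower in both CP lines like Cdkn1c and Ascl2, by -0.41 ± 0.15 (adjusted p = 0.0462) in CP1 and -0.64 ± 0.14 (adjusted p = 0.00320) in CP2.

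Genes within 1 Mb of the locus that are on neither imprinted list served as a description of the surroundings. Of 20 such tested genes, 6 were called higher and 4 lower in CP1 versus P1, with a median log2 fold change of -0.08, and 1 was called higher and 7 lower in CP2 versus P1, with a median of -0.28. Chosen after their values were seen, Shank2 was at -4.96 and Syt8 at -4.87 in CP2 versus P1, less far from 0 than Kcnq1, Phlda2 and Slc22a18. Tnfrsf26 was in CP1 versus P1 at 3.37 and Mrgprg, with a mean of 1.18 CPM over the 10 tumours, at 7.87. Low Kcnq1, Slc22a18 and Phlda2 went together with low epithelial markers (Epcam, Cdh1, Krt8, Krt18 and Krt19), whose summed level was 9051 to 18471 CPM in P1, 709.9 to 1355 CPM in CP1 and 214 to 427 CPM in CP2. All 5 markers were called lower in both CP lines, none was at 0 counts in any tumour, and their part in the result was not tested.

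**Figure D3:**
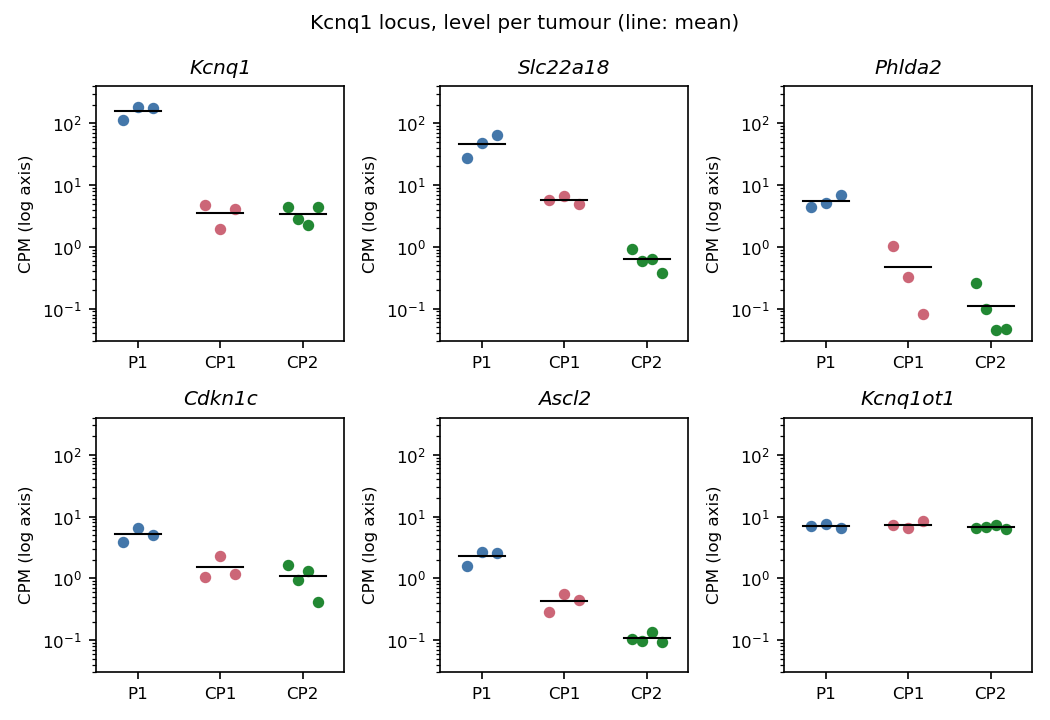
Level per tumour (CPM, log axis) of 6 genes of the Kcnq1 locus in P1 (n = 3), CP1 (n = 3) and CP2 (n = 4); each point is a tumour and the bar is the mean. The P1 points of Kcnq1, Slc22a18, Phlda2, Cdkn1c and Ascl2 lie above all CP points, and those of Kcnq1ot1 lie between 6.28 and 8.34 CPM in every tumour.

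**Figure D4:**
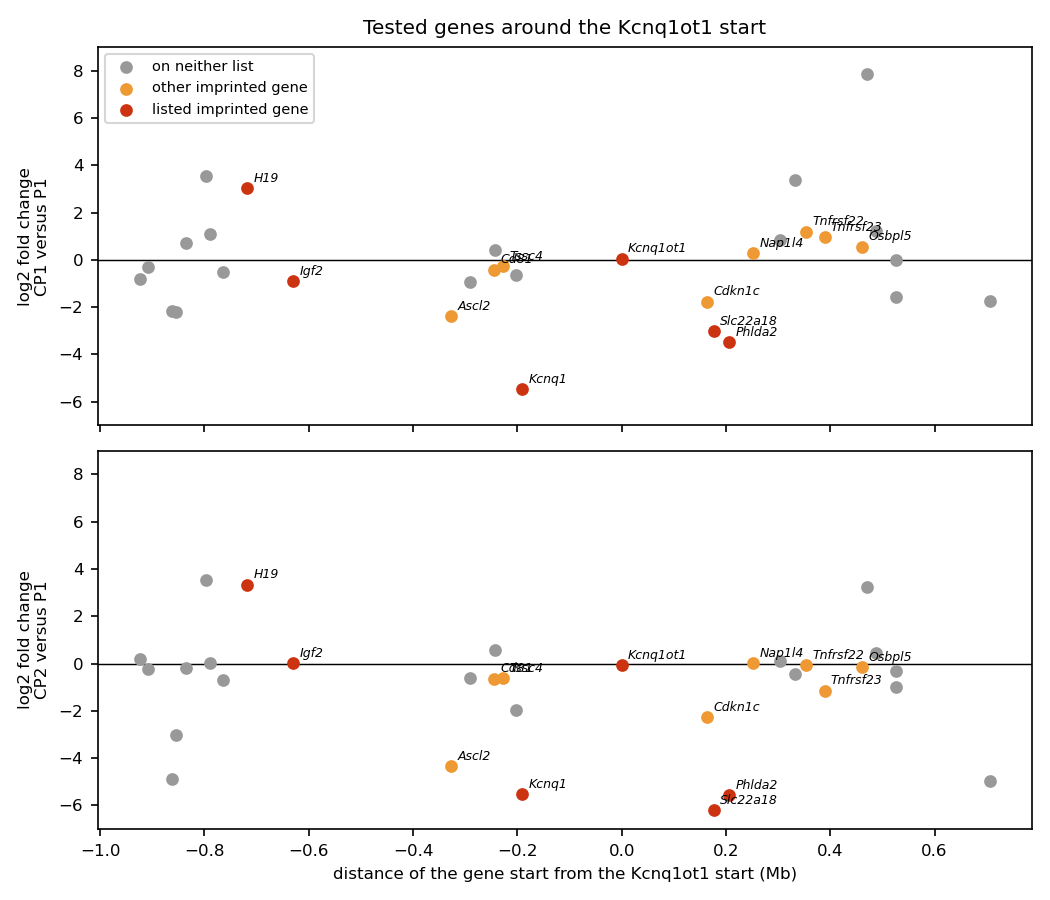
Log2 fold change of each tested gene against the distance of its start from the Kcnq1ot1 start (Mb), in CP1 versus P1 (top) and CP2 versus P1 (bottom); red points are listed imprinted genes, orange points are genes of the second imprinted list and grey points are on neither list. Kcnq1, Slc22a18 and Phlda2 lie below -3 in both panels within 0.21 Mb of Kcnq1ot1, which is itself near 0. No grey point lies as low as these genes in either panel, and Mrgprg, a grey point, lies at 7.87 in the top panel.

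Igf2r (ENSMUSG00000023830, chromosome 17: 12682406 to 12769664, minus strand) encodes the receptor that carries IGF2 and mannose 6-phosphate-tagged enzymes to lysosomes, and is maternally expressed in most mouse tissues. Airn (ENSMUSG00000078247, chromosome 17: 12741311 to 12860136, plus strand) is the paternal antisense RNA that starts within Igf2r. Igf2r stood at 168, 122 and 113 CPM in the P1 tumours, 748, 632 and 747 CPM in those of CP1 and 237, 268, 237 and 240.4 CPM in those of CP2. The 3 lines did not overlap, with CP1 highest and P1 lowest. Airn stood at 3.51, 2.99 and 2.48 CPM in the P1 tumours, 10.9, 8.6 and 9.35 CPM in those of CP1 and 3.95, 4.51, 3.97 and 4.23 CPM in those of CP2, in the same order and also without overlap.

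Igf2r was higher by a log2 fold change of 2.40 ± 0.16 (adjusted p = 3.23e-06) in CP1 and 0.87 ± 0.14 (adjusted p = 5.64e-04) in CP2, and lower in CP2 than in CP1 by -1.53 ± 0.14 (adjusted p = 3.45e-05). Airn was higher by 1.68 ± 0.19 (adjusted p = 6.63e-05) in CP1, and lower in CP2 than in CP1 by -1.21 ± 0.17 (adjusted p = 4.12e-04). In CP2 versus P1 it was called at 0.47 ± 0.18 (adjusted p = 0.0404), a call that was lost in 10 of the 16 alternatives, among them the fit without a filter on low counts at 0.42 (adjusted p = 0.133). Counts for Airn were 2.09% to 2.46% of those for Igf2r in P1, 1.25% to 1.46% in CP1 and 1.67% to 1.76% in CP2. The exons annotated for these genes share 0 bases, but Airn lies across the body of Igf2r, and with the use of strand unknown a read from an Igf2r intron could have been counted for Airn. Gm7162 and Gm16574, small annotated genes that overlap Airn but not Igf2r, differed in CP1 versus P1 by 1.84 and 1.76, near the value of Airn.

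The corresponding stretches before the RefSeq starts of the antisense pair, again with CpG in capitals, are chr17:12769767-12769956 on the minus strand for Igf2r and chr17:12741061-12741250 on the plus strand for Airn. They are shown for the sequence context of the pair, and methylation was not measured.
Igf2r: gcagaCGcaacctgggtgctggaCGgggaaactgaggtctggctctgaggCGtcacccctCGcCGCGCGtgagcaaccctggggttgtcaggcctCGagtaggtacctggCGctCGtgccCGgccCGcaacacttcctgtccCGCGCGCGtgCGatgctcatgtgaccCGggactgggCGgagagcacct
Airn: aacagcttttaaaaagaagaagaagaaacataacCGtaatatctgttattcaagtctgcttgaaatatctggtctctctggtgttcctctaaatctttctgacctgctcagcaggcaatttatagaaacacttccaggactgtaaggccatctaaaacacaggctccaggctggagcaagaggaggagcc
The printed Igf2r stretch holds 19 CpG, a number reached by 9.45% of all windows cut to that length. The printed Airn stretch holds 1, a number reached by 88.2%. The whole 300-base windows hold 34 CpG for Igf2r and 3 for Airn, beside a median of 7. Over whole RefSeq windows of 300 bases, the hexamer TGCCGC, known as the core of the ZFP57 binding motif and searched on both strands, occurred in 10 of the 27 listed genes that have an entry (37.0%) and in 13.1% of all genes. Counted per window, since a gene can have several, it occurred in 11 of the 42 windows of listed genes (26.2%) and in 11.6% of all windows. The hexamer itself holds a CpG, and the windows of listed genes held a median of 13 CpG against 7 over all windows. The shares are not matched for CpG content. The 10 genes with the hexamer are Zdbf2, Nnat, Mest, Nap1l5, Zim1, Snrpn, Igf2, Plagl1, Grb10 and Meg3, and none of the 5 printed stretches holds it.

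Around Igf2r, 18 tested genes on neither imprinted list lay within 1 Mb, with 5 called higher and 6 lower in CP1 versus P1 and a median of -0.01. In CP2 versus P1, 2 were called higher and 10 lower, with a median of -0.45. Mas1, Gm7162 and Gm16574, among those called higher in CP1, overlap Airn. Chosen after its values were seen, Mas1 was at 4.06 in CP1 and 5.31 in CP2 against P1, above Igf2r in both comparisons. Of the imprinted transporter genes beside Igf2r, Slc22a2 had 0 counts in all 3 P1 tumours and 0.706, 0.844 and 1.34 CPM in CP1, at least 28.9-fold higher with P1 set to 3 counts over the group. The same bound for CP2, with 8 counts over 4 tumours, was at least 2.95-fold. Slc22a3 was not called in CP1 (2.12 ± 0.79 (adjusted p = 0.0522)) or CP2 (0.15 ± 0.75 (adjusted p = 0.876)).

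H19 (ENSMUSG00000000031, chromosome 7: 142575529 to 142578143) is a maternally expressed noncoding RNA that shares enhancers with the paternally expressed growth factor gene Igf2 (ENSMUSG00000048583, chromosome 7: 142650766 to 142666816). H19 stood at 3.85, 1.37 and 1.6 CPM in the P1 tumours, 15, 19.5 and 22 CPM in those of CP1 and 12.2, 19.5, 17 and 43.9 CPM in those of CP2. All 7 CP tumours lay above all P1 tumours, and CP2 replicate 4 was the highest. The log2 fold changes against P1 were 3.04 ± 0.53 (adjusted p = 0.00111) in CP1 and 3.34 ± 0.52 (adjusted p = 4.15e-04) in CP2, and CP2 differed from CP1 by 0.30 ± 0.45 (adjusted p = 0.616). Igf2 stood at 5.48, 7.35 and 7.95 CPM in the P1 tumours, 1.31, 3.41 and 6.44 CPM in those of CP1 and 8.17, 7.16, 6.47 and 6.09 CPM in those of CP2, so CP1 replicate 1 was the lowest and the lines overlapped.

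Igf2 was not called in any comparison, with -0.90 ± 0.44 (adjusted p = 0.125) in CP1 versus P1, 0.01 ± 0.41 (adjusted p = 0.987) in CP2 versus P1 and 0.91 ± 0.42 (adjusted p = 0.107) in CP2 versus CP1. Without CP1 replicate 3 it was called lower in CP1, at -1.55 (adjusted p = 0.0115), and without CP1 replicates 2 and 3 the value was -2.40 (adjusted p = 0.00133). Igf2 counts were 142% to 536% of H19 counts in P1, 8.73% to 29.2% in CP1 and 13.9% to 67.1% in CP2, ranges that did not overlap between P1 and either CP line. Igf2 shares 3596 exon bases with the annotated gene Gm49394, so reads there could be split or dropped in counting.

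The Snrpn-Ndn locus, on chromosome 7, corresponds to the human region of Prader-Willi syndrome, and its listed members are paternally expressed. Snrpn (ENSMUSG00000102252, chromosome 7: 59982495 to 60140219), which encodes a spliceosomal Sm protein, stood at 9.7, 9.63 and 12.6 CPM in the P1 tumours, 1.69, 3.21 and 1.98 CPM in those of CP1 and 3.29, 3.83, 4.06 and 5.21 CPM in those of CP2. Ndn (ENSMUSG00000033585, chromosome 7: 62346569 to 62350262), which encodes necdin, a MAGE family protein that restrains growth in neurons, stood at 11, 8.07 and 7 CPM in the P1 tumours, 4.59, 4.83 and 5.83 CPM in those of CP1 and 1.28, 0.834, 1.69 and 1.86 CPM in those of CP2. Every P1 tumour lay above every CP tumour in both genes, but the CP lines were in opposite order, with CP1 lowest for Snrpn and CP2 lowest for Ndn.

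Snrpn was lower by a log2 fold change of -2.21 ± 0.28 (adjusted p = 1.51e-04) in CP1 and -1.38 ± 0.25 (adjusted p = 0.00102) in CP2, and CP2 was higher than CP1 by 0.83 ± 0.26 (adjusted p = 0.0273), a call lost without CP1 replicate 1 or 3 or CP2 replicate 3 or 4 (adjusted p = 0.0527 to 0.0913). Ndn was lower by -2.61 ± 0.28 (adjusted p = 3.44e-05) in CP2, and from CP1 to CP2 the difference was -1.84 ± 0.28 (adjusted p = 6.02e-04). In CP1 versus P1 Ndn was at -0.77 ± 0.28 (adjusted p = 0.0486), at the edge of the threshold. That call was lost with no filter on low counts, with P1 replicates 1 and 2 removed, with CP1 replicates 2 and 3 removed and in 7 of the 10 fits that left out a tumour, among which the value without P1 replicate 1 was -0.59 (adjusted p = 0.148).

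Peg12 (Frat3, a relative of the GSK3-binding protein FRAT1) stood at 2.71, 3.02 and 2.81 CPM in the P1 tumours, 1.17, 1.27 and 0.931 CPM in those of CP1 and 0.565, 0.638, 0.684 and 0.977 CPM in those of CP2. Mkrn3, a makorin ubiquitin ligase gene, stood at 0.77, 1.37 and 1.2 CPM in the P1 tumours, 0.141, 0.292 and 0.405 CPM in those of CP1 and 0.257, 0.294, 0.319 and 0.233 CPM in those of CP2. Again no P1 tumour overlapped a CP tumour. Peg12 was lower by -1.34 ± 0.25 (adjusted p = 0.00146) in CP1 and -1.98 ± 0.23 (adjusted p = 6.93e-05) in CP2, and Mkrn3 by -1.99 ± 0.38 (adjusted p = 0.00174) and -1.99 ± 0.35 (adjusted p = 9.05e-04). CP2 differed from CP1 by -0.64 ± 0.24 (adjusted p = 0.0549) for Peg12 and 0.00 ± 0.42 (adjusted p = 0.996) for Mkrn3. Magel2, the fifth listed gene of the locus, had at most 0.0981 CPM in any tumour and was not tested. Within 1 Mb of these genes only 4 tested genes were on neither list, of which 1 was called lower in each comparison with P1. Ube3a and Atp10a, maternally expressed in some tissues and placed in the same region, went the other way. Ube3a, a ubiquitin ligase gene, was not called in CP1 and was higher in CP2 by 0.41 ± 0.11 (adjusted p = 0.0111), and Atp10a, a phospholipid flippase gene, was higher by 1.36 ± 0.18 (adjusted p = 2.19e-04) in CP1 and 2.32 ± 0.18 (adjusted p = 5.29e-06) in CP2. Snurf, which shares exons with Snrpn, was listed at 0 counts in all 10 tumours.

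The Dlk1-Meg3 locus on chromosome 12 holds the paternally expressed Notch-like ligand gene Dlk1 (ENSMUSG00000040856, chromosome 12: 109452823 to 109463336) and the maternally expressed noncoding RNAs Meg3 (ENSMUSG00000021268, chromosome 12: 109541001 to 109571726), Rian and Mirg, the latter pair being hosts of small nucleolar RNAs and microRNAs. Dlk1 stood at 0.123, 0.249 and 6.09 CPM in the P1 tumours, 0.847, 0.876 and 0.445 CPM in those of CP1 and 0.36, 0.932, 0.729 and 0.419 CPM in those of CP2. P1 replicate 3 was higher than all other tumours and the other P1 tumours were the lowest of all. Dlk1 was not called, at -1.55 ± 1.11 (adjusted p = 0.290) in CP1 and -1.80 ± 1.05 (adjusted p = 0.170) in CP2. Without P1 replicate 3 the direction turned and the calls were higher, at 1.93 (adjusted p = 0.0215) and 1.68 (adjusted p = 0.0297). With P1 replicates 1 and 2 removed, so that P1 replicate 3 stood alone, Dlk1 was called lower, at -3.09 (adjusted p = 0.00218) in CP1 and -3.34 (adjusted p = 8.05e-04) in CP2. Without P1 replicate 1 it was called lower in CP2, at -2.38 (adjusted p = 0.0467). The sign of the Dlk1 difference thus rested on which P1 tumours were kept.

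Rian stood at 19.5, 13.7 and 10.4 CPM in the P1 tumours, 16.9, 13.7 and 7.53 CPM in those of CP1 and 4.73, 3.92, 4.33 and 10 CPM in those of CP2, with every P1 tumour above every CP2 tumour and CP2 replicate 4 apart from the other CP2 tumours. It was lower in CP2 by -1.34 ± 0.39 (adjusted p = 0.0137) against P1 and -1.14 ± 0.39 (adjusted p = 0.0364) against CP1, and not called in CP1 (-0.19 ± 0.41 (adjusted p = 0.729)). Mirg, at 0.0490 to 0.671 CPM in the 10 tumours, was lower in CP2 by -1.48 ± 0.51 (adjusted p = 0.0307) against P1 and -1.62 ± 0.51 (adjusted p = 0.0276) against CP1. The Rian and Mirg calls were lost in several alternatives, among them, for the comparison with P1, removal of P1 replicates 1 and 2, which gave -0.87 (adjusted p = 0.224) for Rian and -1.03 (adjusted p = 0.325) for Mirg. Of 13 tested genes within 1 Mb of the locus that are on neither imprinted list, 10 were also called lower and 1 higher in CP2 versus P1 (median -0.73), and 9 lower and 2 higher in CP2 versus CP1 (median -0.69). The CP1 counts against P1 were 4 lower and 1 higher (median 0.07). Meg3 stood at 9.48, 10.3 and 3.5 CPM in the P1 tumours, 8.97, 14 and 5.95 CPM in those of CP1 and 4.42, 2.89, 2.37 and 7.16 CPM in those of CP2 and overlapped between lines. Its CP2 values pointed the same way, at -0.89 ± 0.47 (adjusted p = 0.135) against P1 and -1.19 ± 0.47 (adjusted p = 0.0649) against CP1, and were not called. Against CP1, Meg3 was called lower with DESeq2, at -1.20 (adjusted p = 0.0322), and with only those lines fitted, at -1.20 (adjusted p = 0.0470). The same held without P1 replicate 3, at -1.19 (adjusted p = 0.0372), and without CP2 replicate 4, at -1.58 (adjusted p = 0.0280). Against P1 it was called lower without P1 replicate 3, at -1.25 (adjusted p = 0.0411), or without CP2 replicate 4, at -1.27 (adjusted p = 0.0466). With P1 replicates 1 and 2 removed it turned to 0.24 (adjusted p = 0.788). It shares 1228 exon bases with the antisense gene Gm26906. Rtl1, a retrotransposon-derived gene opposite to the noncoding RNAs, had at most 0.255 CPM and was not tested.

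Peg3 (ENSMUSG00000002265, chromosome 7: 6703892 to 6730431), which encodes a large zinc-finger protein and is paternally expressed, stood at 2.86, 4.21 and 2.22 CPM in the P1 tumours, 4.24, 19.8 and 22.3 CPM in those of CP1 and 1.18, 0.589, 2.46 and 1.07 CPM in those of CP2. CP1 replicates 2 and 3 were the highest of all tumours, CP1 replicate 1 was close to P1 replicate 2, and CP2 overlapped P1. Zim1 (ENSMUSG00000002266, chromosome 7: 6671269 to 6696450), the maternally expressed zinc-finger gene beside it, stood at 0, 0.187 and 0.0365 CPM in the P1 tumours, 0.247, 1.43 and 1.86 CPM in those of CP1 and 0.103, 0.049, 0 and 0.0465 CPM in those of CP2 and so was also highest in CP1 replicates 2 and 3. It was not tested. Usp29, a ubiquitin protease gene that shares a promoter region with Peg3, had at most 0.228 CPM.

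Peg3 was higher in CP1 than in P1 by 2.31 ± 0.62 (adjusted p = 0.0121) and lower in CP2 than in CP1 by -3.53 ± 0.60 (adjusted p = 0.00118), and CP2 versus P1 was not called (-1.22 ± 0.59 (adjusted p = 0.102)). The higher level in CP1 rests on CP1 replicates 2 and 3, since without them the value was 0.45 (adjusted p = 0.643) against P1 and -1.67 (adjusted p = 0.0807) for CP2 versus CP1. Removal of P1 replicates 1 and 2 also ended the call in CP1, at 2.77 (adjusted p = 0.0779). In those same CP1 tumours the summed level of smooth muscle markers (Myh11, Actg2, Cnn1, Des and Acta2) was 2379.9 and 3683 CPM, against 401 CPM in CP1 replicate 1, 598 to 2008 CPM in P1 and 139 to 328 CPM in CP2. Urothelial markers (Upk1a, Upk1b, Upk2, Upk3a and Snx31) summed to 1289.7 and 516 CPM there, against 55.1 CPM in CP1 replicate 1, 17.0 to 47.5 CPM in P1 and 1.72 to 9.07 CPM in CP2. Skeletal muscle markers (Acta1, Ckm, Myh4, Tnnt3, Myl1 and Mylpf) summed to 29.6 and 58.0 CPM in CP1 replicates 2 and 3. They summed to 3.85 CPM in CP1 replicate 1, 14.1 to 55.6 CPM in P1 and 4.67 to 13.3 CPM in CP2. Of these 6 markers, 2 were at 0 counts in CP1 replicate 3. None of the 5 smooth muscle markers was at 0 counts in any tumour, and the part of these cells in the Peg3 result was not tested.

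Peg10 (ENSMUSG00000092035, chromosome 6: 4747306 to 4760517), a paternally expressed gene derived from a retrotransposon and needed for the placenta, stood at 4.4, 6.08 and 1.9 CPM in the P1 tumours, 9.36, 9.6 and 42.2 CPM in those of CP1 and 0.36, 0.294, 0.319 and 1.21 CPM in those of CP2. CP1 replicate 3 was far above the other tumours, all CP1 tumours lay above P1, and all CP2 tumours lay below P1. The log2 fold changes were 2.30 ± 0.70 (adjusted p = 0.0225) in CP1, -2.90 ± 0.73 (adjusted p = 0.00666) in CP2 and -5.20 ± 0.75 (adjusted p = 4.73e-04) in CP2 versus CP1. The call in CP1 was lost without CP1 replicate 3, at 1.20 (adjusted p = 0.133), without P1 replicate 1 or 3 (adjusted p = 0.0545 and 0.0708), and with CP1 replicates 2 and 3 removed, at 1.18 (adjusted p = 0.265). Removal of P1 replicates 1 and 2 gave 3.40 (adjusted p = 0.0582) in CP1 and -1.81 (adjusted p = 0.177) in CP2. CP2 versus CP1 was called in every alternative.

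Sgce (ENSMUSG00000004631, chromosome 6: 4674350 to 4747207), which encodes epsilon-sarcoglycan and starts beside Peg10 on the opposite strand, stood at 10.4, 9.22 and 5.69 CPM in the P1 tumours, 4.66, 8.89 and 7.73 CPM in those of CP1 and 2.16, 1.28, 1.5 and 2.6 CPM in those of CP2. Every CP2 tumour lay below every tumour of the other lines. Sgce was lower in CP2 by -2.16 ± 0.33 (adjusted p = 3.34e-04) against P1 and -1.91 ± 0.33 (adjusted p = 0.00125) against CP1, and CP1 versus P1 was -0.25 ± 0.34 (adjusted p = 0.575). Thus CP1 had a higher Peg10 level than P1 without a called change of Sgce. Asb4, a maternally expressed ankyrin repeat gene farther along, stood at 0.154 to 0.651 CPM and was called in no comparison.

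Plagl1 (ENSMUSG00000019817, chromosome 10: 13060504 to 13131694), a paternally expressed zinc-finger factor known for slowing the cell cycle, stood at 8.34, 6.73 and 4.16 CPM in the P1 tumours, 1.8, 7.2 and 6.8 CPM in those of CP1 and 0.719, 0.392, 0.638 and 0.465 CPM in those of CP2. The CP2 tumours were the lowest, and CP1 replicate 1 lay well below CP1 replicates 2 and 3, which overlapped P1. Plagl1 was lower in CP2 by -3.52 ± 0.49 (adjusted p = 1.86e-04) against P1 and -3.24 ± 0.49 (adjusted p = 5.94e-04) against CP1. CP1 versus P1 was not called (-0.28 ± 0.46 (adjusted p = 0.649)), but with CP1 replicates 2 and 3 removed it was lower by -1.83 (adjusted p = 0.0238).

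**Figure D5:**
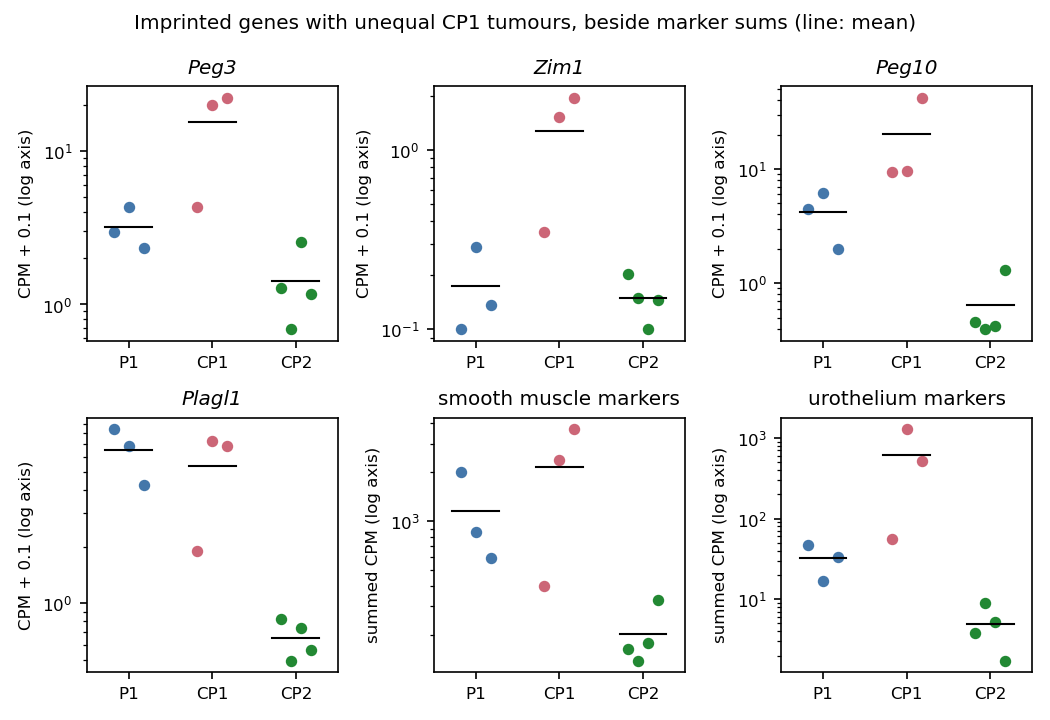
Level per tumour of Peg3, Zim1, Peg10 and Plagl1 (CPM + 0.1, log axis) beside the summed CPM of 5 smooth muscle and 5 urothelium markers (log axis); each point is a tumour of P1 (n = 3), CP1 (n = 3) or CP2 (n = 4), and the bar is the mean. CP1 replicate 1, the left CP1 point, is the lowest CP1 tumour in all 6 panels, and all CP2 points of Peg10 and Plagl1 lie below P1.

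Of the genes listed singly, Impact, a paternally expressed regulator of the GCN2 stress kinase, stood at 32.6, 27.7 and 26.8 CPM in the P1 tumours, 63, 52.7 and 65 CPM in those of CP1 and 97.2, 93.3, 78.6 and 101 CPM in those of CP2. P1, CP1 and CP2 did not overlap and rose in that order, by 1.05 ± 0.13 (adjusted p = 1.07e-04) in CP1 and 1.67 ± 0.12 (adjusted p = 3.65e-06) in CP2, with CP2 minus CP1 at 0.62 ± 0.12 (adjusted p = 0.00227). Of 12 tested genes within 1 Mb of Impact on neither imprinted list, 3 were called higher and 2 lower in CP1 versus P1 (median 0.35) and 7 higher and 2 lower in CP2 versus P1 (median 0.72). The medians stood in the same order as Impact. Chosen after their values were seen, Riok3 was at 1.03 and Tmem241 at 1.08 in CP2 versus P1. Mest, which encodes an alpha/beta hydrolase and is paternally expressed, stood at 6.56, 2.34 and 2.3 CPM in the P1 tumours, 17.5, 8.66 and 10.5 CPM in those of CP1 and 11.8, 18.8, 15.3 and 25.5 CPM in those of CP2. Every CP tumour lay above every P1 tumour, and Mest was higher by 1.71 ± 0.46 (adjusted p = 0.0125) in CP1 and 2.25 ± 0.45 (adjusted p = 0.00188) in CP2. Mest shares 912 exon bases with the antisense gene Copg2, which was itself not called in CP1 (0.16 ± 0.08 (adjusted p = 0.130)) and higher in CP2 by 0.77 ± 0.07 (adjusted p = 1.93e-05).

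Gnas, whose complex locus encodes the stimulatory G protein alpha subunit and transcripts from either parental allele, stood at 184, 158 and 139 CPM in the P1 tumours, 255, 248 and 289 CPM in those of CP1 and 293, 319, 307 and 314 CPM in those of CP2. It was higher by 0.72 ± 0.12 (adjusted p = 6.36e-04) in CP1 and 0.94 ± 0.11 (adjusted p = 6.13e-05) in CP2 without overlap between P1 and the CP lines, and the gene-level count does not separate its transcripts. Peg13, a noncoding RNA inside an intron of Trappc9, stood at 48.5, 39 and 35.1 CPM in the P1 tumours, 51.3, 44 and 37.7 CPM in those of CP1 and 75.8, 75.9, 77.5 and 80.8 CPM in those of CP2. CP2 lay above both other lines, by 0.92 ± 0.13 (adjusted p = 2.21e-04) against P1 and 0.81 ± 0.13 (adjusted p = 9.21e-04) against CP1, while P1 and CP1 overlapped (0.12 ± 0.14 (adjusted p = 0.525)). Trappc9 on the same strand was not called in CP2 versus P1 (0.20 ± 0.08 (adjusted p = 0.0646)). Inpp5f, an inositol phosphatase gene with an imprinted transcript that gene counts do not separate, stood at 45.3, 34.3 and 27.6 CPM in the P1 tumours, 37.4, 42.1 and 43.6 CPM in those of CP1 and 64.2, 61.8, 67.6 and 58.5 CPM in those of CP2, and CP2 was higher by 0.82 ± 0.15 (adjusted p = 0.00114) against P1 and 0.62 ± 0.15 (adjusted p = 0.00817) against CP1.

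Grb10, a maternally expressed adaptor that dampens insulin and IGF1 receptor signalling, stood at 38.9, 29.9 and 23.3 CPM in the P1 tumours, 26.4, 29.5 and 30.1 CPM in those of CP1 and 19.1, 11.9, 11.3 and 13.6 CPM in those of CP2. The CP2 tumours were the lowest, at -1.14 ± 0.21 (adjusted p = 0.00116) against P1 and -1.04 ± 0.21 (adjusted p = 0.00317) against CP1, and CP1 versus P1 was -0.10 ± 0.22 (adjusted p = 0.745). With CP1 replicates 2 and 3 removed, the CP2 versus CP1 calls of Grb10, Sgce, Impact and Inpp5f were lost, at adjusted p = 0.0541 to 0.0718, with the same direction. Nnat, which encodes the small membrane protein neuronatin, stood at 2.77, 6.64 and 2.26 CPM in the P1 tumours, 1.52, 1.59 and 2.06 CPM in those of CP1 and 1.59, 1.91, 4.06 and 1.4 CPM in those of CP2. P1 replicate 2 was the highest, every P1 tumour lay above every CP1 tumour, and CP2 overlapped both other lines. Nnat was called in no comparison (-1.18 ± 0.49 (adjusted p = 0.0775) in CP1 and -0.79 ± 0.45 (adjusted p = 0.159) in CP2). Without P1 replicate 3 it was called lower in CP1, at -1.46 (adjusted p = 0.0434). Without CP2 replicate 3 it was called lower in CP1, at -1.17 (adjusted p = 0.0429), and in CP2, at -1.25 (adjusted p = 0.0307). Nap1l5, at most 0.552 CPM, and Zdbf2, at most 0.324 CPM, were too low to be tested.

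By the parental allele known to be expressed in mouse, 10 maternally and 16 paternally expressed listed genes were tested. In CP1 versus P1, 2 maternally expressed genes were called higher and 3 lower (median log2 fold change 0.02), and 5 paternally expressed genes higher and 4 lower (median -0.27). In CP2 versus P1 the counts were 2 higher and 6 lower for maternally expressed genes (median -1.24) and 4 higher and 7 lower for paternally expressed genes (median -1.30). In CP2 versus CP1 they were 0 higher and 5 lower (median -1.17) and 3 higher and 6 lower (median -0.19). The shares called were 50% of the maternally and 56.25% of the paternally expressed genes in CP1 versus P1, where 44.8% of all genes were called. They were 80% and 68.75% in CP2 versus P1, where 56.7% of all genes were called. They were 50% and 56.25% in CP2 versus CP1, where 43.3% of all genes were called. Calls against P1 went in both directions for both kinds, as over all genes.

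Per kb of annotated exon, so that levels can be compared between genes, Kcnq1 had the highest mean level of the listed genes in P1, at 38.6 CPM per kb, followed by Slc22a18 at 27.4, Igf2r at 14.4 and Gnas at 14.3. In CP1 Igf2r led at 76.2 CPM per kb, followed by Gnas at 23.6 and Impact at 11.7. In CP2 Gnas stood at 27.6, Igf2r at 26.4, Impact at 18 and Peg13 at 16.4 CPM per kb. Kcnq1 stood at 0.868 in CP1 and 0.841 in CP2, and Slc22a18 to 3.38 and 0.371 CPM per kb.

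Of the second list of imprinted genes, 47 of 48 symbols were in the files and 38 were tested. In CP1 versus P1, 15 were called higher and 8 lower (median 0.29), in CP2 versus P1 13 higher and 16 lower (median -0.11), and in CP2 versus CP1 3 higher and 13 lower (median -0.36). The shares called were 60.5%, 76.3% and 42.1%, beside 44.8%, 56.7% and 43.3% over all genes. The last of these was near the share for all genes. Slc38a4, a paternally expressed amino acid transporter gene, stood at 1.51, 3.15 and 2.33 CPM in the P1 tumours, 31.8, 214 and 41.9 CPM in those of CP1 and 47.5, 46.3, 31.4 and 52.7 CPM in those of CP2. It was higher by 5.36 ± 0.75 (adjusted p = 2.89e-04) in CP1, where replicate 2 was highest, and 4.25 ± 0.71 (adjusted p = 6.09e-04) in CP2, with no overlap with P1. Cobl, an actin nucleator gene beside Grb10, was lower by -2.92 ± 0.46 (adjusted p = 5.83e-04) in CP1 and -4.38 ± 0.45 (adjusted p = 2.89e-05) in CP2. Htr2a, a serotonin receptor gene, was higher in CP2 than in P1 by 3.19 ± 0.64 (adjusted p = 0.00186). Ddc, which encodes aromatic amino acid decarboxylase and also lies beside Grb10, stood at 2.83, 7.2 and 9.63 CPM in the P1 tumours, 17.5, 15.7 and 17.4 CPM in those of CP1 and 0.36, 0.147, 0.684 and 0.233 CPM in those of CP2, and was lower in CP2 than in CP1 by -5.54 ± 0.51 (adjusted p = 3.48e-05). Casd1, a sialic acid acetyltransferase gene next to Sgce, was higher in CP2 than in CP1 by 0.81 ± 0.12 (adjusted p = 5.16e-04), opposite to Sgce and Peg10.

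Among 24 factors known to establish or maintain imprints, 22 were tested. In CP1 versus P1, 5 were called higher and 2 lower, in CP2 versus P1 9 higher and 4 lower, and in CP2 versus CP1 5 higher and 4 lower. These are 31.8%, 59.1% and 40.9% of the factors tested, below or near the 44.8%, 56.7% and 43.3% called over all genes. Zfp57, a zinc-finger protein that binds the methylated copy of imprinting control regions, stood at 10.2, 13.8 and 11.5 CPM in the P1 tumours, 2.58, 4.06 and 2.47 CPM in those of CP1 and 1.8, 1.77, 1.32 and 2.05 CPM in those of CP2. All P1 tumours lay above all CP tumours, and Zfp57 was lower by -1.96 ± 0.25 (adjusted p = 1.66e-04) in CP1 and -2.77 ± 0.24 (adjusted p = 9.24e-06) in CP2. Its partner Trim28 was not called in CP1 (0.12 ± 0.11 (adjusted p = 0.393)) or CP2 (-0.09 ± 0.10 (adjusted p = 0.479)).

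Dnmt1, the maintenance DNA methyltransferase, stood at 99.8, 92 and 89 CPM in the P1 tumours, 211, 162 and 213 CPM in those of CP1 and 119, 144, 145 and 142 CPM in those of CP2, and was higher by 1.06 ± 0.13 (adjusted p = 9.80e-05) in CP1 and 0.55 ± 0.12 (adjusted p = 0.00265) in CP2. Dnmt3l, the germ-line cofactor of de novo methylation, stood at 0.493, 0.343 and 0.328 CPM in the P1 tumours, 0.671, 6.36 and 3.48 CPM in those of CP1 and 0.103, 0.245, 0.0456 and 0.372 CPM in those of CP2. It was higher in CP1 than in P1 by 3.16 ± 0.75 (adjusted p = 0.00655), and CP1 replicates 2 and 3 held most of that difference, as with Peg3 and Zim1. Suz12, a Polycomb subunit, was higher by 0.39 ± 0.09 (adjusted p = 0.00486) in CP1 and 1.05 ± 0.09 (adjusted p = 6.67e-06) in CP2. Smchd1, a chromosomal silencing protein, was higher by 0.74 ± 0.09 (adjusted p = 1.31e-04) in CP1 and 0.82 ± 0.09 (adjusted p = 3.46e-05) in CP2. Mbd3, a subunit of the NuRD complex, was lower in CP2 by -1.0 ± 0.10 (adjusted p = 2.99e-05) against P1 and -1.06 ± 0.10 (adjusted p = 5.29e-05) against CP1. Ehmt1, a histone H3 methyltransferase, was lower by -0.46 ± 0.13 (adjusted p = 0.0152) in CP1 and -0.51 ± 0.12 (adjusted p = 0.00503) in CP2, and the heterochromatin protein gene Cbx1 was higher in CP2 than in CP1 by 0.62 ± 0.10 (adjusted p = 0.00110). These are transcript levels, and no allele, methylation or protein was measured.

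As a check of the tissue, the epithelial marker sums given above were lowest in CP2. Probasin (Pbsn), a secretory product of the prostate, ranged from 119 to 1393 CPM over the P1 tumours and from 0.0465 to 12.0 CPM over those of CP2, while CP1 replicates 1, 2 and 3 gave 378, 1.07 and 0.607 CPM. Fibroblast markers summed to 5062 to 9714 CPM in P1, 14998 to 23525 CPM in CP1 and 7752 to 9606 CPM in CP2, and seminal vesicle markers to 16979 to 150045 CPM in P1, 6.13 to 25.5 CPM in CP1 and 3.05 to 1505 CPM in CP2. The fibroblast sum, made up mostly of collagen counts, was highest in CP1, like Igf2r. Its 9 markers did not move together. Among them, 3 were called higher and 1 lower in CP1 versus P1 and 4 higher and 4 lower in CP2 versus P1. Pdgfra, Pdgfrb and Dpt were highest in CP2 and Thy1 in P1. Smooth muscle markers were lowest in CP2, like Plagl1, Sgce and Peg10. All 5 smooth muscle markers were called lower in CP2 than in P1. So were 4 of 5 nerve and Schwann markers and 3 of 6 endothelial markers, with 0 called higher in either set. Of 5 macrophage markers, 0 were called. The part of such cells in these results was not tested. Ctnnb1 was lower than in P1 by a log2 fold change of -0.81 ± 0.12 (adjusted p = 4.48e-04) in CP1 and -0.90 ± 0.11 (adjusted p = 9.80e-05) in CP2, and a gene count does not check the deleted exon.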

How the data were processed

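RNA was sequenced from 10 orthograft tumours of the lines P1, CP1 and CP2. The authors deposited unnormalised read counts, in whole numbers, for each Ensembl gene and tumour. The submitters' processing notes list the genome build GRCm38.p3 and the tools TopHat2 (2.1.0), HTSeq (0.6.0), DESeq2 (1.14.1), Bowtie2 (2.2.6.0), FastQC (0.11.4) and R (3.2.3). The annotation used for counting and whether it used strand are not given in the sources used here. Of 47069 gene IDs, 46574 matched GENCODE M21 (GRCm38), which gave symbols and coordinates, and 495 did not.

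Counts were tested with edgeR 4.0.16 (limma 3.58.1) in R 4.3.3. The function filterByExpr, with a minimum count of 10 and a minimum total of 15, left 17644 genes. TMM factors scaled the libraries, the quasi-likelihood model took all 10 tumours with a mean per line, and p-values were adjusted by the Benjamini-Hochberg method over all genes tested. SEs were obtained as the size of the log2 fold change over the square root of F. The script was tested on simulated data. Alternatives were RLE size factors, no filter, DESeq2 1.42.0, a fit of only the lines compared, leaving out each tumour, and fits without CP1 replicates 2 and 3 or without P1 replicates 1 and 2, tumours that stand apart in tissue markers. Genes named from the second imprinted list and the maintenance factors were, per comparison, up to 2 called genes in each direction with the largest change and no overlap between lines. Cdkn1c, Cd81, Nap1l4, Tnfrsf22, Tnfrsf23, Slc22a3, Ube3a, Copg2, Trappc9, Trim28 and the neighbours named are not given by this rule and were picked with their values known. The members and lists were chosen with earlier results of these data known. Promoter sequences come from RefSeq (GRCm38.p6, 250 bases before to 50 after a start), in which 27 of the 34 genes had an entry. Floors cover counting error only. Part of the genotypes is not reported here.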

Additional observations from a re-analysis of the deposited data

Results flagged for a closer look

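Among 28 sets of 4 CP2 tumours, 1 set per tested gene, 3 held a tumour that stood apart from the other CP2 tumours, by a gap, as a share of the whole range, above Dixon's 95% critical value. Chance flags about 1 in 20 such sets. For Peg10 the gap of CP2 replicate 4, at 1.21 CPM, took 0.929 of the range, but all CP2 tumours remained below P1. For Rian the gap of CP2 replicate 4, at 10 CPM, took 0.869 of the range. For Igf2r the gap of CP2 replicate 2, at 268 CPM, took 0.88 of a range that spanned only 237 to 268 CPM. Peg10 was also marked because it was called higher in CP1 and lower in CP2 against P1, and the direct comparison of CP2 with CP1 gave a log2 fold change of -5.20. No explanation was tested.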

How the results depend on the processing

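The number of imprinted genes called stayed within 1.5 times its value under all 16 alternatives, at 14 to 17 in CP1 versus P1, 19 to 22 in CP2 versus P1 and 11 to 17 in CP2 versus CP1. The listed genes that entered were 28 in the main fit and 34 with no filter or with DESeq2. With only the lines compared they were 26 in CP2 versus P1 and 25 in CP2 versus CP1. Equal counts therefore need not hold the same genes. With CP1 replicates 2 and 3 removed, the share of called genes that were higher in CP1 versus P1 moved from 53.3% to 42.9%. Of 51 calls of single genes, 36 held in every alternative in which the gene was tested, 15 were lost in at least 1 and 0 turned direction. Of 33 differences not called, 15 were called in at least 1 alternative. The direction turned for these uncalled differences, for which the cause was not tested. Removal of P1 replicates 1 and 2 gave 0.27 for Rian, 0.27 for Grb10, 0.31 for Plagl1 and 0.29 for Sgce in CP1 versus P1, and -0.22 for Igf2 and 0.24 for Meg3 in CP2 versus P1. Removal of CP1 replicates 2 and 3 gave 0.22 for Rian and -0.070 for Asb4 in CP1 versus P1, and 0.94 for Mkrn3 in CP2 versus CP1. Igf2 in CP2 versus P1 was -0.011 with RLE size factors, -0.043 with no filter on low counts, -0.014 with DESeq2 and -0.0050 with only those lines fitted. Leaving out 1 tumour at a time gave ranges that crossed 0 in CP1 versus P1 for Dlk1 (-2.14 to 1.93), Meg3 (-0.057 to 0.57), Rian (-0.47 to 0.078), Mirg (-0.059 to 0.37), Peg13 (-0.012 to 0.24), Grb10 (-0.27 to 0.091), Kcnq1ot1 (-0.048 to 0.14), Plagl1 (-0.58 to 0.12), in CP2 versus P1 for Igf2 (-0.15 to 0.11), Dlk1 (-2.38 to 1.68), Asb4 (-0.81 to 0.014) and in CP2 versus CP1 for H19 (-0.21 to 0.51), Kcnq1 (-0.35 to 0.21), Mkrn3 (-0.32 to 0.33), Nnat (-0.075 to 0.55). Where a removal left 1 tumour in a line, that tumour was assumed to vary like the others. No paired analysis was possible because the labels give no replicate numbers that tie tumours across lines. Levels near 0.1 CPM, as for Phlda2 in CP2 and Mirg, rest on a few counts.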
